A study of Arabidopsis thaliana with 141 samples.

Results

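The genes described here encode the Pep danger-signalling module of Arabidopsis thaliana: the receptor genes PEPR1 (AT1G73080) and PEPR2 (AT1G17750) and the peptide precursor genes PROPEP1 (AT5G64900), PROPEP2 (AT5G64890), PROPEP3 (AT5G64905), PROPEP4 (AT5G09980) and PROPEP5 (AT5G09990). These 7 genes were picked by locus identifier from the 32005 loci that every count table of the series lists, and all 7 were present in all 141 RNA-seq libraries. Values are in counts-per-million (CPM), that is a gene's share of all reads assigned to genes, after scaling between libraries.

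Pep peptides are short signals cut from the end of PROPEP precursor proteins when cells are damaged or attacked. They are bound at the cell surface by PEPR1 and PEPR2, leucine-rich repeat receptor kinases that signal together with the co-receptor BAK1. The outputs overlap with those of FLS2, the receptor for the bacterial flagellin peptide flg22, and include activation of the MAP kinases MPK3, MPK6 and MPK4, an oxidative burst and defence gene expression. Because PROPEP and PEPR genes can themselves respond to such signals, the module is known as an amplifier of immune and wound responses.

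Whole 7-d-old seedlings in liquid medium or shoots of 4-week-old soil-grown plants were sampled. WT seedlings received 100 nM flg22 and were taken after 0 (water), 5, 10, 15, 30 and 60 min, with 2 libraries per time. In 4 further seedling sets (B1 to B4, 3 libraries per group), WT, impk36 and impk4 seedlings were pretreated for 15 min with 10 uM 3MBiP, a bulky kinase inhibitor, and then given a stimulus. B1 held 20 uM ABA, 50 uM MeJA and 100 nM pep3, and a WT group with 0.1% DMSO in place of 3MBiP. B2 held 2 nM flg22 for 30 min or 1 h and wounding with forceps, B3 held UVB from a 40 W source and B4 held 10 mM H2O2. Apart from the 30 min group, stimuli lasted 1 h. Each set had its own WT group with 3MBiP alone, but only B1 and B2 had unstimulated impk36 and impk4 groups. Adult impk4 plants were untreated (0 h) or sprayed with 1% DMSO (mock) or 100 uM 3MBiP and sampled after 3, 6, 12 and 24 h, and untreated mpk4 plants carried no time label (3 libraries per group). The labels name the lines impk36, impk4 and mpk4 without describing their alleles, transgenes or promoters, and do not say whether a line is 1 transformant. For seedlings, 8 were pooled for an RNA, and nothing states that libraries of a group came from separate growths, so p-values measure the spread between these libraries, which may be technical.

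The 5 precursor genes share little of their sequence, but near the end of each coding sequence lie 9 codons that can be aligned without gaps, inside the stretch that gives rise to the Pep peptide. These sequences are shown because they lie in the part from which the peptides come. They were read 5′ to 3′ from the plus strand of chromosome 5 (TAIR10.1), at chr5:25937910-25937936 for PROPEP1, chr5:25935277-25935303 for PROPEP2, chr5:25939895-25939921 for PROPEP3, chr5:3123687-3123713 for PROPEP4 and chr5:3124935-3124961 for PROPEP5. Capitals mark the 10 of 27 bases that are identical in all 5. All 10 lie in codons whose amino acid the search fixed. The alignment without gaps and much of this identity, also between pairs, thus follow from the search.
PROPEP1: AGcTCaGGccgtcctGGccaacatAAt
PROPEP2: AGtTCaGGtcgtcctGGccaaactAAt
PROPEP3: AGtTCaGGaaaaggaGGcaaacacAAt
PROPEP4: AGtTCcGGcaagccgGGaggcaccAAc
PROPEP5: AGcTCgGGaaaacgaGGtggagttAAc

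PROPEP1 and PROPEP2 were the closest pair over this stretch, with 23 of 27 identical bases, and the other pairs shared 13 to 17. PROPEP1, PROPEP2 and PROPEP3 lie next to each other between positions 25934568 and 25940080 of chromosome 5. PROPEP4 and PROPEP5 lie between 3122731 and 3125076 of the same chromosome. Every 50-base window of the exons of PEPR2 and of the 5 PROPEP genes occurred once in the genome, and 97.45% of those of PEPR1 did. PEPR2 is overlapped on the other strand by the long non-coding genes AT1G05323 and AT1G05327, over 225 and 739 bases, which only the tables of B4 and the adult set list, and by AT1G17760 over 14 bases. PROPEP5 shares 39 bases with AT5G09995. The library kit does not mark strand, so reads in these overlaps cannot be assigned to one gene.

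The 250 bases upstream of the annotated starts were searched on both strands for the W-box, TTGACC or TTGACT, to which WRKY transcription factors bind, and for the G-box CACGTG. A W-box stood in 28.4% of 27443 windows of this length in the genome and a G-box in 6.49%. PROPEP3 held 4 W-boxes, PROPEP2 and PEPR1 held 2, PROPEP1 and PROPEP4 held 1, and PROPEP5 and PEPR2 held none. PEPR1 alone of the 7 held a G-box, 10 bases before its start, in a window that overlaps the neighbouring gene AT1G73066. The windows of PROPEP2 (chr5:25934318-25934567), PROPEP3 (chr5:25939312-25939561) and PROPEP4 (chr5:3122481-3122730), all on the plus strand, are shown since PROPEP2 and PROPEP3 led after flg22 and pep3, and PROPEP4 after MeJA. Capitals mark W-boxes, written as AGTCAA or GGTCAA where they lie on the minus strand.
PROPEP2: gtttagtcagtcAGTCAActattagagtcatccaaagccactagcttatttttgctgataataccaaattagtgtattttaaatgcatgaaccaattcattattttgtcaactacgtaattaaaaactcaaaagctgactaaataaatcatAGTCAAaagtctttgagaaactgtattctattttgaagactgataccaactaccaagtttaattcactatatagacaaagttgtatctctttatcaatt
PROPEP3: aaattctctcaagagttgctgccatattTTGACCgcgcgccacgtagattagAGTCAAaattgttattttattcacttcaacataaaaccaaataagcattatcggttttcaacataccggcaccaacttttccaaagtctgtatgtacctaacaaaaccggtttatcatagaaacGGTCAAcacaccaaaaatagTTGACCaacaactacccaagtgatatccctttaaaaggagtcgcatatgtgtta
PROPEP4: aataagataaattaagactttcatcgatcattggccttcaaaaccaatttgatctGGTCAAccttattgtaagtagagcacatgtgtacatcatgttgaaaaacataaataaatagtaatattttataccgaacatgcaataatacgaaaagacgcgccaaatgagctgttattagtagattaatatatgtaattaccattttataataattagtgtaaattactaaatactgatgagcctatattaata

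Libraries held 13.9 M to 40.45 M gene counts (median 23.46 M), and no 2 libraries were identical. The kinase genes set the lines apart. In B1 with 3MBiP alone, MPK6 stood at 308 ± 28.7 CPM in impk36 against 58.6 ± 1.3 in WT (SD, n = 3), and MPK3 at 16.9 ± 1.5 against 60.5 ± 5.3. The level of MPK4 was 61.6 ± 0.84 CPM in WT and 1496 ± 39.6 in impk4, and in adult shoots it was 1503 ± 57.1 in untreated impk4 and 22.5 ± 2.1 in mpk4. All 8 root markers checked had reads in every seedling group. In WT their summed level was 80.9 to 85.1 CPM after ABA and 102 to 110 after MeJA against 112 to 120 with 3MBiP alone. After wounding it was 92.3 to 103 against 110 to 111, and after H2O2 103 to 109 against 113 to 126. After UVB it was 101 to 107 against 131 to 173. None of these groups overlapped with its control. SCR, SHR and GL2 make up a large part of the sum, with median levels of 45.9, 14.9 and 6.32 CPM in B1. They were also read in adult shoots, at 38.7, 10.6 and 12.6 CPM, where the medians of PHT1;1, PLT1 and RHD6 were 0. The sum is therefore not a measure of the share of root. The 4 green-tissue markers summed to 14800 to 15900 CPM at 60 min of 100 nM flg22 against 23100 to 24400 at 0 min, to 9820 to 10700 after pep3 against 11600 to 12400, and in B2 to 9170 to 10100 after flg22 for 1 h and 9370 to 10100 after wounding against 12600 to 13400. After UVB they summed to 11100 to 14700 CPM against 15100 to 15300. Sums differed between lines as well, for example after pep3 and flg22. After pep3 the root markers summed to 118 to 122 CPM in impk36 against 98.6 to 115 in WT. The green-tissue markers summed to 11300 to 11900 there against 9820 to 10700. After flg22 for 30 min the root markers summed to 123 to 133 CPM in impk36 and 119 to 125 in impk4 against 102 to 110 in WT. The part of these differences in the results was not tested. In bulk RNA such as this, fewer cells of a type and less RNA per cell cannot be told apart.

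flg22 raised 5 of the 7 genes within 15 min and left PROPEP4 and PROPEP5 largely apart from the others. PROPEP3 and PROPEP2 led: both were past the threshold at 10 min and still climbing at 60 min, whereas the receptor genes were highest at 30 min. PROPEP5 fell. Calls are at an adjusted p under 0.05 from edgeR's quasi-likelihood test with Benjamini-Hochberg adjustment over all genes tested, and fold changes are given on the log2 scale with the standard error of the fit.

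**Figure D1:**
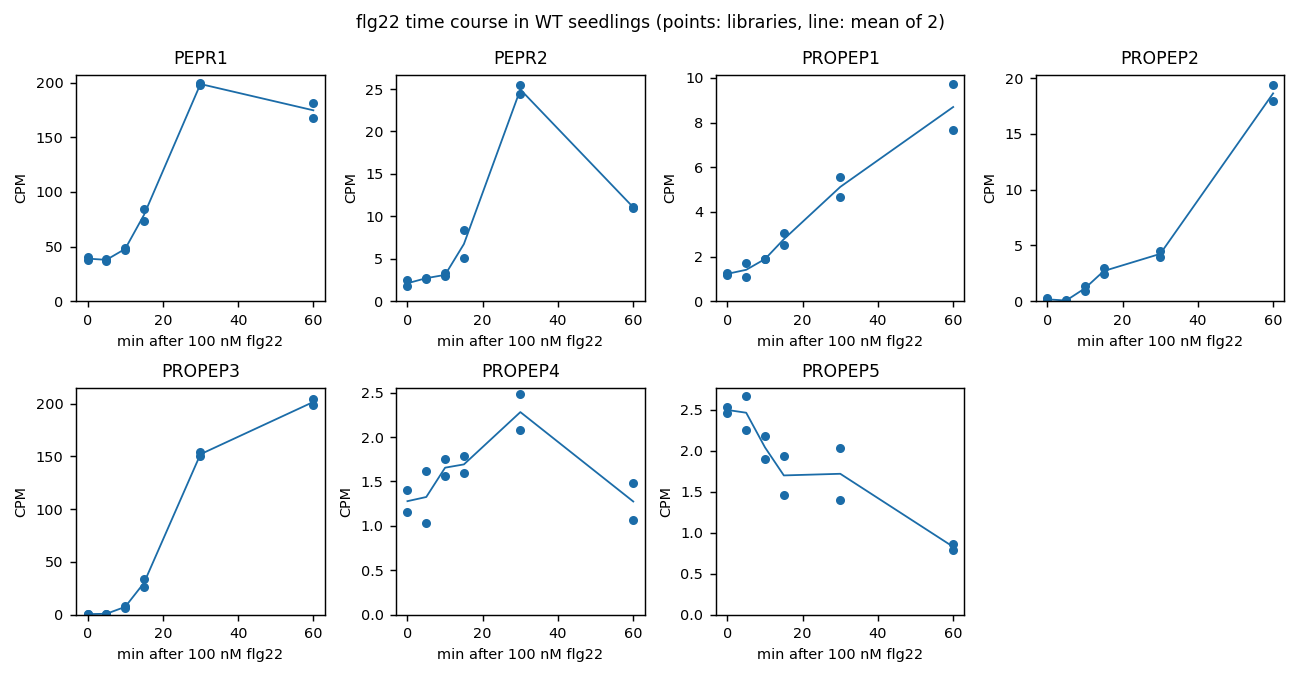
CPM (linear axis from 0) of each gene against minutes after 100 nM flg22 in WT seedlings, with 1 point per library and a line through the means of 2 libraries. PROPEP3 goes from under 0.5 to about 200 CPM, the PEPR genes are highest at 30 min, and PROPEP5 is lowest at 60 min.

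PROPEP3, the precursor of Pep3, stood at 0.335 and 0.467 CPM in the 0 min libraries. It reached 6.53 and 8.04 CPM at 10 min, 25.9 and 34.1 at 15 min, 150 and 154 at 30 min and 205 and 198 at 60 min. No library from 10 min on overlapped with those at 0 min, and the log2 fold change was 4.17 ± 0.43 at 10 min and 8.97 ± 0.42 at 60 min (adjusted p = 3.6e-08 and 1.3e-16). PROPEP2, a further precursor gene, rose from 0.26 and 0.085 CPM through 0.948 and 1.37 at 10 min to 17.9 and 19.4 at 60 min, log2 fold changes of 2.65 ± 0.51 and 6.66 ± 0.48 (adjusted p = 5.5e-05 and 6.5e-18). Most of that gain came late, since PROPEP2 was still at 3.97 and 4.52 CPM at 30 min. PROPEP1, the precursor in which the Pep family was first described, climbed more slowly, from 1.26 and 1.19 CPM to 9.72 and 7.67 at 60 min, and passed the threshold from 15 min (log2 fold change 1.18 ± 0.25 there and 2.82 ± 0.23 at 60 min, adjusted p = 0.00059 and 4.6e-12).

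Both receptor genes peaked at 30 min. PEPR1, the receptor with the wider range of Pep ligands, had 40.6 and 37.3 CPM at 0 min, 198 and 199 at 30 min and 182 and 168 at 60 min. Its rise of 0.29 ± 0.07 at 10 min was past the threshold (adjusted p = 0.0037), but not without the second 0 min library (0.0677). PEPR2 went from 2.45 and 1.78 CPM to 24.4 and 25.5 at 30 min and then back to 11.1 and 11 at 60 min, so its log2 fold change was 3.54 ± 0.20 at 30 min and 2.37 ± 0.20 at 60 min. The 2 libraries of PEPR2 at 30 min lay above both at 60 min, and the same held for PEPR1.

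PROPEP4 and PROPEP5 had other courses. PROPEP4 stood at 1.15 and 1.4 CPM at 0 min, 2.48 and 2.08 at 30 min and 1.48 and 1.07 at 60 min. Its rise of 0.83 ± 0.26 at 30 min (adjusted p = 0.011) was not called by DESeq2 (0.069) nor without the first library at 0 min (0.0958) or at 30 min (0.0879). PROPEP5 was at 2.53 and 2.46 CPM at 0 min and 0.789 and 0.864 at 60 min, a log2 fold change of -1.59 ± 0.29 (adjusted p = 1.6e-05). At 30 min its change of -0.56 ± 0.23 was not called (adjusted p = 0.0533), except without the first 30 min library (-0.83, adjusted p = 0.0261). At 5 min none of the 7 genes was called by edgeR or DESeq2 and 0 had an unadjusted p under 0.05, where 0.963% of 20871 genes tested were called. At 10 min 3 of 7 were higher beside 6.32% of all genes, at 15 min 5 of 7 beside 12.6%, and at 30 min 6 of 7 beside 22.1%. At 60 min 5 of 7 were higher beside 32.7% of all genes, and 1 of 7 was lower beside 33.6%. At 0 min PROPEP2 and PROPEP3 were at 0.26 and 0.467 CPM at most, so they passed the filter on low counts mainly through later libraries. Their part in these counts supports nothing. The median log2 fold change of the 7 was 2.35 at 30 min and 2.37 at 60 min, and that of all genes tested was -0.0287 and -0.0284.

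In WT seedlings the mean of each of the 7 genes was lower with 3MBiP alone than with DMSO, and 1 was called. The median log2 difference of the 7 was -0.392, beside -0.000477 for all genes tested. PROPEP2 was called lower with 3MBiP than with DMSO (1 of 7, beside 4.03% of 21211 genes lower), at 0.0454, 0.0997 and 0.0318 CPM against 0.482, 0.146 and 0.29. These are few reads, and the adjusted p of 0.022 did not hold without DMSO replicate 1 or 3 (0.113 and 0.059) or 3MBiP replicate 1 or 3 (0.0618 and 0.131). PEPR1 had 26.1, 28.6 and 30.7 CPM with 3MBiP and 27.6, 27.5 and 31.9 with DMSO, and its groups overlapped. PEPR2 had 4.08, 3.79 and 3.82 CPM with 3MBiP and 4.28, 5.64 and 5.33 with DMSO, groups that did not overlap (-0.39 ± 0.15, adjusted p = 0.10). PROPEP1 had 1.72, 1.3 and 1.3 CPM against 1.82, 2.28 and 1.99, also without overlap (-0.50 ± 0.19, adjusted p = 0.0948). The 8 root markers summed to 112 to 120 CPM with 3MBiP and 125 to 135 with DMSO, and their part in these differences was not tested.

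In WT seedlings the 8 stimuli gave each gene its own profile. PEPR1, PEPR2, PROPEP2 and PROPEP3 were higher after 7 of 8 stimuli and PROPEP1 after 6, PROPEP4 after 4 and PROPEP5 after 2. MeJA, the methyl ester of the wound hormone jasmonic acid, raised all 7, and after MeJA PROPEP4 rather than PROPEP3 was the precursor with the largest fold change. ABA, the drought and salt stress hormone, gave no call for either receptor gene and lowered PROPEP3. Stimuli of 1 set share their WT control libraries, so their values stand side by side and are not independent of each other. PROPEP2 had at most 0.209 CPM in WT libraries with 3MBiP alone and passed the filter on low counts through stimulated groups. PROPEP3, with at most 0.536 CPM there, was near the limit of that filter. Their part in counts of called genes, here and below, supports nothing, and their values are given as a description. Without the filter none of their WT calls against 3MBiP alone was lost.

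**Figure D2:**
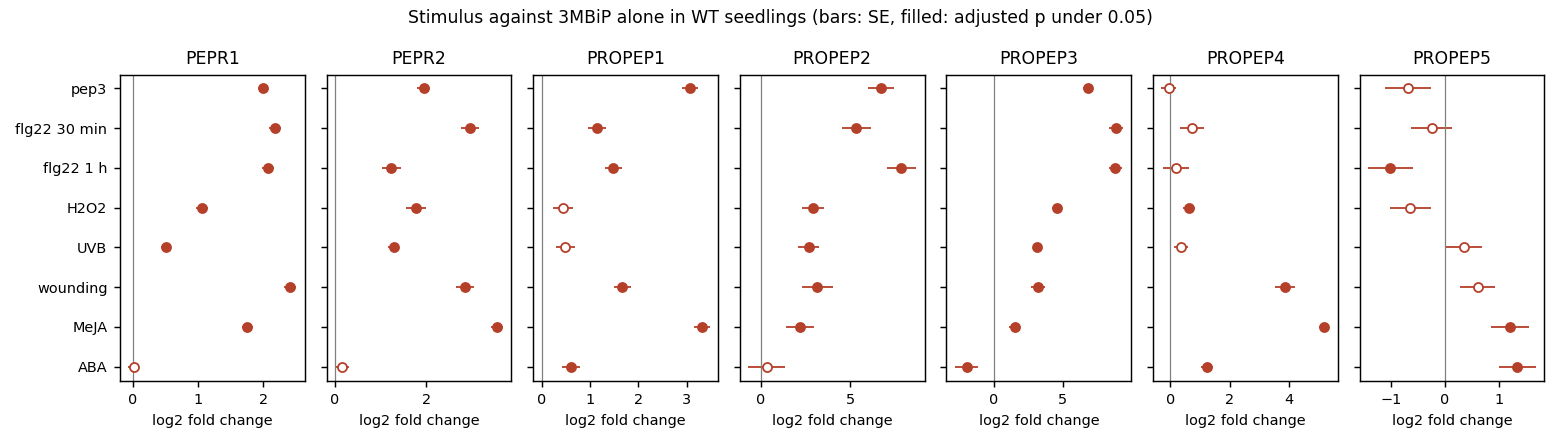
Log2 fold change of each gene after each stimulus against 3MBiP alone in WT seedlings, with the standard error of the fit as bars and filled points where the adjusted p is under 0.05. Each panel has its own axis. PROPEP2 and PROPEP3 are farthest right after flg22 and pep3, PROPEP4 after MeJA and wounding.

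Among all genes tested, the share called higher was 16.7% after ABA, 16.1% after MeJA and 32.2% after pep3, 22.1% and 29.8% after flg22 for 30 min and 1 h, 28.7% after wounding, 19.3% after UVB and 21.1% after H2O2. Beside these, 3, 7, 5, 5, 5, 6, 4 and 5 of the 7 genes were higher, in the same order. Lower calls were PROPEP3 after ABA (1 of 7, beside 13.7% of all genes) and PROPEP5 after flg22 for 1 h (1 of 7, beside 30.6%). The median log2 fold change of the 7 genes was 2.85 after wounding, 2.2 after MeJA, 2.17 and 1.48 after flg22 for 30 min and 1 h, 1.99 after pep3, 1.06 after H2O2, 0.513 after UVB and 0.324 after ABA, where that of all genes tested stayed between -0.0233 and 0.0077.

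PEPR1 was the most abundant of the 7 in unstimulated seedlings. In CPM per kilobase of exon, a scale on which genes can be compared, it stood at 7.44 ± 0.59 with 3MBiP alone in B1 (n = 3), against 2.09 ± 0.35 for PROPEP1, 1.59 ± 0.29 for PROPEP4, 1.21 ± 0.69 for PROPEP5, 1.05 ± 0.04 for PEPR2, 0.577 ± 0.25 for PROPEP3 and 0.0873 ± 0.053 for PROPEP2. On the same scale PROPEP3 led after flg22 for 1 h in B2 (251 ± 18.6, PEPR1 30.9 ± 3.4) and after pep3 (62.6 ± 2.9, PEPR1 29.6 ± 3), and PROPEP4 led after MeJA (56.3 ± 5, PEPR1 25.2 ± 0.98). The order of levels within the family therefore differed between stimuli. After wounding, PEPR1 was highest (39.1 ± 0.26), followed by PROPEP4 (23.9 ± 0.57).

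The receptor genes rose after every stimulus except ABA. PEPR1 in B2 had 30.3, 27.1 and 27.1 CPM with 3MBiP alone, 139, 116 and 126 after flg22 for 30 min, and 149, 150 and 150 after wounding, its highest level in this set (2.41 ± 0.09, adjusted p = 4.5e-20). The wounding libraries lay above all flg22 libraries. In B1 it went from 26.1, 28.6 and 30.7 CPM to 111, 103 and 126 after pep3 and to 94.8, 101 and 93.6 after MeJA. UVB gave the smallest called rise (0.51 ± 0.08, adjusted p = 8.6e-05). PEPR2 was highest after MeJA, with 42, 48.2 and 45.8 CPM against 4.08, 3.79 and 3.82 (3.54 ± 0.13, adjusted p = 1.8e-22). It reached 29.9, 26.4 and 28.3 CPM after flg22 for 30 min but 11.7, 5.88 and 8.59 at 1 h, without overlap, as its libraries at 30 and 60 min of 100 nM flg22 also were. After pep3 it stood at 15.3, 11.2 and 17.8 CPM, well under its level after MeJA.

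PROPEP3 was at 0.313, 0.164 and 0.343 CPM with 3MBiP alone in B2 and at 130, 127 and 143 after flg22 for 30 min, a log2 fold change of 8.84 ± 0.49 (adjusted p = 2.2e-25). After 1 h it was still at 136, 119 and 136 CPM. In B1 it went from 0.227, 0.449 and 0.223 CPM to 34.1, 31.1 and 32.3 after 100 nM pep3, the peptide whose name matches its own product (6.80 ± 0.36, adjusted p = 9.4e-23). The pep3 libraries lay far above the 0.979, 0.862 and 0.696 CPM after MeJA. Smaller rises followed H2O2 (4.57 ± 0.32), wounding (3.20 ± 0.52) and UVB (3.16 ± 0.29). After ABA its 0.0545, 0.104 and 0.0505 CPM lay below the controls (-1.96 ± 0.84, adjusted p = 0.034), a call on few reads that ended without 3MBiP replicate 2 (0.141) or ABA replicate 1 (0.0964) or 3 (0.106).

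PROPEP2 had almost no reads at rest and differed from PROPEP3 in its timing. In B2 the 3 control libraries held 3 reads of it together. After flg22 it stood at 1.92, 2.09 and 2.16 CPM at 30 min and 13.6, 9.7 and 12.4 at 1 h, whereas PROPEP3 was about level between these times. The ratio of its counts to the controls was 46.1 at 30 min and 264 at 1 h (95% counting intervals 15.4 to 227 and 90 to 1280). After pep3 it reached 6.08, 6.29 and 6.71 CPM (6.73 ± 0.74, adjusted p = 3.6e-16), and after wounding 0.444, 0.274 and 0.569, a ratio of 9.91 (3.06 to 50.9). MeJA gave 0.361, 0.23 and 0.232 CPM (2.20 ± 0.81, adjusted p = 0.012), a call that ended without 3MBiP replicate 3 (0.0751) or MeJA replicate 1 (0.0504).

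PROPEP1 was raised most by MeJA and pep3. It had 1.72, 1.3 and 1.3 CPM with 3MBiP alone, 14.8, 15.6 and 12.6 after MeJA (3.31 ± 0.16, adjusted p = 1.8e-19) and 12.7, 10.7 and 12.9 after pep3 (3.07 ± 0.16, adjusted p = 7e-19). These 2 groups overlapped. Its rise was smaller after flg22 for 1 h (1.48 ± 0.18) and wounding (1.67 ± 0.18). The rise of 0.60 ± 0.19 after ABA (adjusted p = 0.014) ended without 3MBiP replicate 2 (0.0519) or 3 (0.0793) or ABA replicate 3 (0.0891). H2O2 and UVB gave 0.44 ± 0.21 and 0.49 ± 0.20, neither of them called (adjusted p = 0.112 and 0.0609). Both passed the threshold without 1 library, 3MBiP replicate 2 for H2O2 and UVB replicate 3 for UVB (adjusted p = 0.0489 for each).

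In WT seedlings of B1 and B2, PROPEP4 rose after MeJA, wounding and ABA and was not called after pep3 or 2 nM flg22. Its level went from 1.04, 0.997 and 0.732 CPM to 34.4, 34.2 and 29.3 after MeJA, a log2 fold change of 5.17 ± 0.18 (adjusted p = 4.6e-25). It went from 0.731, 1.15 and 0.961 CPM to 14.3, 13.6 and 13.8 after wounding (3.87 ± 0.34, adjusted p = 3.6e-13). After pep3 it stood at 0.815, 0.665 and 1.03 CPM, overlapping with its controls, and neither flg22 time was called (0.73 ± 0.41 and 0.20 ± 0.43). ABA raised it to 2.29, 2.03 and 2.07 CPM (1.23 ± 0.21, adjusted p = 8e-06). The rise of 0.63 ± 0.20 after H2O2 (adjusted p = 0.020) ended without 3MBiP replicate 3 (0.0675) or H2O2 replicate 1 (0.0585) or 3 (0.0852).

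PROPEP5 reached 1.42 CPM at most in the WT seedlings of B1 to B4. It was raised by ABA, from 0.816, 0.249 and 0.445 CPM to 1.42, 1.35 and 1.06 (1.33 ± 0.35, adjusted p = 0.0021), and by MeJA, to 1.13, 0.977 and 1.33 (1.20 ± 0.34, adjusted p = 0.0050). Neither group overlapped with the controls. After flg22 for 1 h it was at 0.255, 0.216 and 0.444 CPM against 0.522, 0.602 and 0.824 (-1.01 ± 0.41, adjusted p = 0.027). That call ended without 3MBiP replicate 3 (0.185) or flg22 replicate 1 (0.0733) or 2 (0.105). With 100 nM flg22 at 60 min it had also been lower.

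impk36 seedlings reached lower levels of the receptor genes and of PROPEP2 and PROPEP3 than WT after peptide, UVB and H2O2 stimuli, and none of the 7 genes was called after MeJA or ABA. The receptor genes and PROPEP3 were also lower after wounding, where PROPEP1 and PROPEP4 were not. All groups in these comparisons had received 3MBiP. Reads placed at several sites, which were not counted, made up 13.4 to 16.5% in the impk36 libraries of B2. They made up 6.47 to 12.8% in WT and 6.06 to 7.55% in impk4 of that set. At rest 31.4% of all genes were called between impk36 and WT in B2 and 3.56% in B1. In B2 this library difference and the line cannot be told apart, and its part in the results was not tested.

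**Figure D3:**
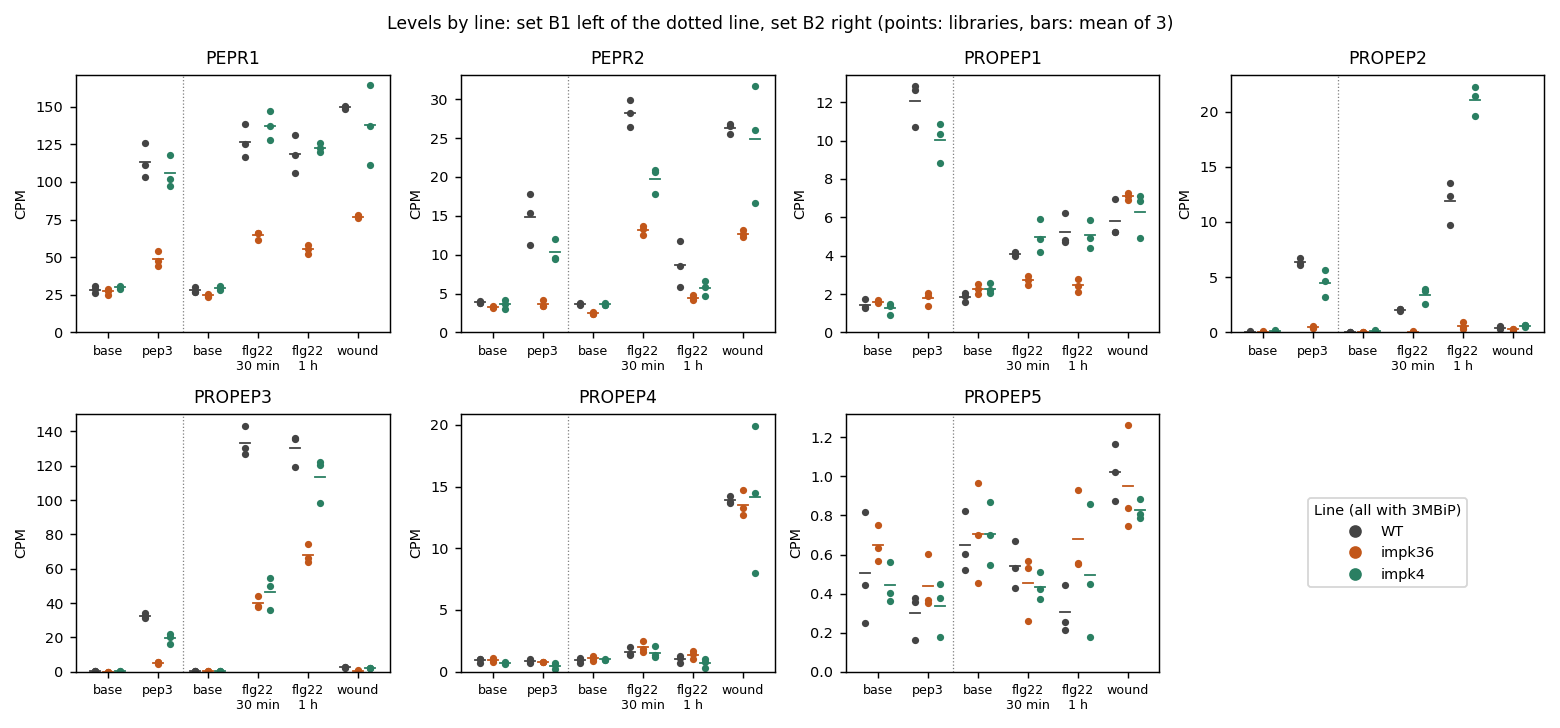
CPM (linear axes from 0) of each gene in WT, impk36 and impk4 seedlings, all with 3MBiP, at rest and after pep3 (B1) and at rest and after flg22 and wounding (B2), with 1 point per library and bars at the means of 3. The impk36 points lie below WT for PEPR1, PEPR2, PROPEP1 and PROPEP2 after pep3 and flg22, and after wounding the PROPEP4 points of the 3 lines overlap, with those of impk4 spread from 7.96 to 19.9 CPM.

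At rest edgeR called 1 member in 1 set between the lines. In B1 PROPEP3 was lower in impk36 (1 of 7 genes lower, beside 2.41% of all genes), with 3 reads over the impk36 libraries against 21 in WT, a ratio of 7.01 (95% counting interval 2.09 to 36.7). The adjusted p of 0.034 did not hold without WT replicate 1 (0.054) or 2 (0.15) or impk36 replicate 1 (0.111) or 3 (0.171). In B2 edgeR called none of 7, though 31.4% of all 21223 genes tested were. PEPR2 alone had an unadjusted p under 0.05, and DESeq2 called it lower there (-0.55, adjusted p = 0.027), with 2.62, 2.43 and 2.41 CPM in impk36 and 3.76, 3.56 and 3.64 in WT.

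After pep3, 5 of 7 genes were lower in impk36 than in WT, beside 17.9% of all genes. PEPR1 reached 47.5, 44.4 and 54 CPM against 111, 103 and 126 in WT, a difference of -1.22 ± 0.08 (adjusted p = 5.5e-15). PEPR2 stayed at 3.35, 3.37 and 4.15 CPM against 15.3, 11.2 and 17.8. PROPEP1 stayed at 2.05, 1.37 and 1.91 CPM against 12.7, 10.7 and 12.9. PEPR2 and PROPEP1 thus did not change detectably with pep3 in impk36 (0.14 ± 0.17 and 0.16 ± 0.19, adjusted p = 0.50 and 0.51), whereas PEPR1 still rose (0.83 ± 0.08, adjusted p = 6.6e-11). The response itself was smaller in impk36 than in WT by 1.16 ± 0.11 for PEPR1, 1.80 ± 0.21 for PEPR2 and 2.91 ± 0.25 for PROPEP1 on the log2 scale (3 of 7 genes, beside 8.48% of all genes, and adjusted p = 1.1e-09, 7.3e-08 and 8.2e-11).

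PROPEP3 after pep3 was at 4.2, 5.73 and 5.41 CPM in impk36 against 34.1, 31.1 and 32.3 in WT, a difference of -2.67 ± 0.17 (adjusted p = 5.7e-15). Within impk36 its ratio to the 3 reads at rest was 125 (95% counting interval 42.3 to 610), so the gene still rose by a large factor. The difference in response between the lines was -0.01 ± 0.97 (adjusted p = 0.95), an estimate that rests on the 3 reads at rest and is wide. PROPEP2 was at 0.55, 0.368 and 0.437 CPM against 6.08, 6.29 and 6.71 (-3.80 ± 0.35, adjusted p = 4e-12), with a difference in response of -2.92 ± 1.29 that was not called (adjusted p = 0.21). PROPEP4 and PROPEP5 were not called in either line after pep3.

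After flg22 the same 5 genes as after pep3 were lower in impk36, PEPR1, PEPR2, PROPEP1, PROPEP2 and PROPEP3, beside 18.8% of all genes at 30 min and 22.5% at 1 h. PROPEP2 differed most. At 30 min it was at 0.0473, 0.104 and 0.0443 CPM in impk36 against 1.92, 2.09 and 2.16 in WT (-4.91 ± 0.73, adjusted p = 6.5e-12), near its level at rest. At 1 h it had reached 0.314, 0.978 and 0.52 CPM against 13.6, 9.7 and 12.4 (-4.31 ± 0.28, adjusted p = 2.6e-19). The gap of PROPEP3 was smaller: 38.5, 37.6 and 44.4 CPM against 130, 127 and 143 at 30 min (-1.73 ± 0.10), and 64.1, 66.1 and 74.3 against 136, 119 and 136 at 1 h (-0.93 ± 0.10). In impk36 all PROPEP3 libraries at 1 h lay above those at 30 min, while in WT the times overlapped.

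PEPR1 after flg22 was at 61.3, 66.1 and 65.8 CPM in impk36 at 30 min (-0.98 ± 0.09) and at 58.1, 52.2 and 55.4 at 1 h (-1.10 ± 0.09), with no overlap with WT. PEPR2 at 30 min was at 13.7, 13.3 and 12.5 CPM (-1.10 ± 0.15) and had fallen to 4.79, 4.12 and 4.46 at 1 h (-0.95 ± 0.21), so its course of rise and decline was seen in both lines. PROPEP1 differed by -0.60 ± 0.17 at 30 min and by -1.11 ± 0.18 at 1 h. PROPEP5 was the exception, being higher in impk36 at 1 h, with 0.549, 0.559 and 0.929 CPM against 0.255, 0.216 and 0.444 (1.13 ± 0.42, adjusted p = 0.021, 1 of 7 beside 24.6% of all genes). That call ended without WT replicate 1 (0.0581) or 2 (0.0784) or impk36 replicate 3 (0.268).

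The difference in the flg22 response between impk36 and WT was called for PEPR1, PROPEP1 and PROPEP2 at both times (3 of 7, beside 4.14% and 6.86% of all genes lower). For PEPR1 it was -0.78 ± 0.13 and -0.90 ± 0.13 (adjusted p = 0.00015 and 6.4e-06). For PROPEP2 it was -5.04 ± 1.31 and -4.44 ± 1.12 (adjusted p = 0.011 and 0.0074), and neither was called without impk36 3MBiP replicate 3 (0.0981 and 0.0768). For PROPEP1 it was -0.87 ± 0.26 and -1.38 ± 0.26 (adjusted p = 0.033 and 0.00012). The first ended when any 1 of 7 libraries was left out: 3MBiP replicate 1 or 3 or flg22 replicate 3 of WT (adjusted p = 0.0841, 0.0639 and 0.0717), 3MBiP replicate 1 or 2 of impk36 (0.102 and 0.0544) and flg22 replicate 1 or 2 of impk36 (0.0559 and 0.0727). The PROPEP3 responses did not differ detectably (-0.83 ± 0.79 and -0.02 ± 0.79).

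After wounding, the levels of the receptor genes and PROPEP3 were called lower in impk36 than in WT. PEPR1 reached 77.2, 78.1 and 75.7 CPM in impk36 against 149, 150 and 150 in WT (-0.96 ± 0.09, adjusted p = 6.2e-10), PEPR2 12.7, 12.3 and 13.2 against 25.5, 26.8 and 26.5 (-1.04 ± 0.15), and PROPEP3 0.466, 0.746 and 0.569 against 2.99, 2.41 and 2.62 (-2.17 ± 0.40). These were 3 of 7 genes, beside 22.4% of all genes lower. PROPEP4 was at 12.7, 14.7 and 13.3 CPM against 14.3, 13.6 and 13.8 (-0.04 ± 0.19), and PROPEP1 at 6.93, 7.26 and 7.1 against 5.21, 5.26 and 6.94 (0.27 ± 0.14, adjusted p = 0.125), both with overlap. Without WT wounding replicate 3, PROPEP1 was called higher in impk36 (0.41, adjusted p = 0.0384). The response of PEPR1 was smaller by 0.76 ± 0.13 (adjusted p = 0.00051, 1 of 7 beside 3.76%), and the other 6 responses did not differ detectably.

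UVB and H2O2 have no unstimulated impk36 group, so only levels can be compared. After UVB, 5 of 7 genes were lower in impk36, beside 6.1% of all 21109 genes tested. PROPEP3 was at 0.38, 0.597 and 0.344 CPM against 3.82, 4.08 and 3.26 in WT (-3.04 ± 0.29, adjusted p = 2.4e-06) and PROPEP2 at 0.138, 0.166 and 0.129 against 1.08, 0.816 and 0.958 (-2.67 ± 0.59). The groups did not overlap in either gene. PEPR1 and PEPR2 were lower by 0.39 ± 0.08 and 0.78 ± 0.12, and PROPEP1 by 0.79 ± 0.20, a call that ended without WT replicate 1 (0.101) or impk36 replicate 3 (0.0894). After H2O2, 4 of 7 were lower, beside 8.02% of all genes. PROPEP3 was at 0.836, 0.717 and 0.379 CPM against 7.03, 7.05 and 5.1 (-3.29 ± 0.25, adjusted p = 2.2e-08), and PEPR1 and PEPR2 were lower by 0.68 ± 0.08 and 0.96 ± 0.20. The lower PROPEP2 level (-1.71 ± 0.49, adjusted p = 0.022) was not called without WT replicate 3 (0.102) or impk36 replicate 1 (0.109) or 3 (0.0928).

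After MeJA neither edgeR nor DESeq2 called any of the 7 genes between impk36 and WT, beside 1.8% of all genes, and after ABA neither did, beside 3.98%. Unadjusted p-values under 0.05 were those of PEPR1 and PEPR2 after MeJA and of PEPR2 after ABA. PEPR2 after ABA was at 2.77, 3.51 and 2.97 CPM in impk36 against 4.14, 4.47 and 4.45 in WT, without overlap (-0.50 ± 0.16, adjusted p = 0.0718), and was called with a replicate block (0.0306). PEPR1 after MeJA was at 84.7, 79.1 and 86.8 CPM against 94.8, 101 and 93.6, also without overlap (-0.20 ± 0.07, adjusted p = 0.202). PROPEP4 after MeJA reached 32.1, 30 and 29.8 CPM in impk36 and 34.4, 34.2 and 29.3 in WT (-0.09 ± 0.10), and PEPR2 36.6, 34.8 and 41.5 against 42, 48.2 and 45.8, without overlap (-0.27 ± 0.10, adjusted p = 0.25). No difference in response to MeJA or ABA was called in the 7 genes by either tool, beside 0.0141% and 0% of all genes, and PROPEP3 alone had an unadjusted p under 0.05 in each. Over the 6 stimuli given to all lines in B1 and B2, 31 of 42 gene-by-stimulus values were called higher in WT, 26 in impk36 and 30 in impk4, and 2, 0 and 0 were called lower. The share of all genes called higher in impk36 was 16.3% after ABA, 16% after MeJA, 28.8% after pep3, 20.4% and 27.6% after flg22 for 30 min and 1 h and 25.9% after wounding, beside 3, 6, 3, 4, 4 and 6 of the 7 genes. In impk4 it was 16.4%, 16.5%, 30.5%, 21.9%, 29.2% and 31.8%, beside 3, 6, 5, 5, 5 and 6 of 7. In impk36, the PROPEP3 rise after wounding (1.93, adjusted p = 0.0149) ended without 3MBiP replicate 3 (0.0617), and that of PROPEP4 after flg22 for 30 min (0.87, adjusted p = 0.0496) without 3MBiP replicate 1 or 2 (0.164 and 0.0921) or flg22 replicate 1 or 3 (0.211 and 0.0771). In impk4, the PEPR2 rise after flg22 for 1 h (0.68, adjusted p = 0.0080) ended without flg22 replicate 3 (0.0793), and that of PROPEP5 after MeJA (1.02, adjusted p = 0.0242) without 3MBiP replicate 1 or 3 (0.0665 and 0.118) or MeJA replicate 3 (0.103). PROPEP1 accounts for 3 of the values called in WT and not in impk36, those after pep3 and both flg22 times. All these counts include PROPEP2 and PROPEP3, with the limit given above for genes that pass the filter through stimulated groups.

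Between impk4 and WT seedlings, edgeR called PEPR2, PROPEP2 and PROPEP3, each after pep3 or flg22. At rest neither tool called any of the 7 genes between impk4 and WT in B1 or B2, beside 0.0801% and 16.6% of all genes, and PROPEP2 in B2 alone had an unadjusted p under 0.05. After pep3, 2 of 7 were lower, beside 4.23% of all genes. PROPEP3 was at 16.4, 20 and 21.7 CPM against 34.1, 31.1 and 32.3 in WT (-0.75 ± 0.15, adjusted p = 0.0012), without overlap. PEPR2 was at 9.38, 9.54 and 12 CPM against 15.3, 11.2 and 17.8, with overlap (-0.53 ± 0.12, adjusted p = 0.0040), and was not called without WT replicate 3 (-0.35, adjusted p = 0.0842). PROPEP4 was just outside the threshold (-0.84 ± 0.27, adjusted p = 0.0612) and inside it without WT replicate 2 or impk4 replicate 2 (0.0489 and 0.0439).

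At 30 min of flg22, PROPEP3 was lower and PROPEP2 higher in impk4 than in WT. PROPEP3 at 30 min was at 35.7, 54.4 and 49.9 CPM against 130, 127 and 143 in WT (-1.52 ± 0.10, adjusted p = 6.1e-13), where impk36 was at 38.5, 37.6 and 44.4. By 1 h it had reached 98.3, 122 and 120 CPM against 136, 119 and 136 (-0.20 ± 0.10, adjusted p = 0.112), with overlap. Without WT flg22 replicate 2, or with a replicate block, it was called lower (-0.27 and -0.20, adjusted p = 0.0456 and 0.0376). PROPEP2 was higher than in WT at both times, at 2.59, 3.94 and 3.76 CPM against 1.92, 2.09 and 2.16 (0.73 ± 0.18, adjusted p = 0.0022) and at 19.6, 21.4 and 22.2 against 13.6, 9.7 and 12.4 (0.83 ± 0.12, adjusted p = 8.1e-07). Its level after flg22 was therefore higher in impk4 and lower in impk36 than in WT. At rest in B2, PROPEP2 had 13 reads in impk4 against 3 in WT, a ratio of 3.39 (counting interval 0.931 to 18.5). That interval is wide, and the higher level in impk4 may have been present before flg22. The PROPEP2 response to flg22 was not called different between impk4 and WT at either time.

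PEPR2 after flg22 was at 17.8, 20.7 and 20.9 CPM at 30 min in impk4 (-0.51 ± 0.14, adjusted p = 0.0074) and at 4.63, 5.79 and 6.65 at 1 h (-0.58 ± 0.20, adjusted p = 0.020). The second call ended without flg22 replicate 1 of WT (-0.38, adjusted p = 0.132) or of impk4 (-0.47, adjusted p = 0.0884). PEPR1 was at 128, 147 and 137 CPM at 30 min and 120, 123 and 126 at 1 h, overlapping with WT at both times. At 30 min 2 of 7 genes were lower and 1 higher, beside 13.2% and 12.3% of all genes, and at 1 h 1 was lower and 1 higher, beside 18.9% and 19.2%.

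The difference in response between impk4 and WT was called for PROPEP3 at 30 min of flg22 (-2.08 ± 0.61, adjusted p = 0.0485, 1 of 7 beside 2.23% of all genes lower). That value is just inside the threshold and was lost without the filter on low counts (0.0735) and with a replicate block (0.0761). It was also lost when any 1 of 7 libraries was left out: 3MBiP replicate 1, 2 or 3 of WT (0.0852, 0.121 and 0.0807), flg22 replicate 1 or 3 of WT (0.0517 and 0.0552) and 3MBiP replicate 2 or 3 of impk4 (0.161 and 0.221). After ABA, MeJA, wounding, UVB and H2O2 neither tool called any of the 7 genes between impk4 and WT, beside 0.259%, 0.113%, 2.41%, 0.696% and 1.19% of all genes. Unadjusted p-values under 0.05 were found for 1, 0, 0, 2 and 2 of the 7. The responses of impk4 to ABA, MeJA, pep3, flg22 for 1 h and wounding were not called different from WT in any of the 7, beside 0%, 0.00471%, 0.702%, 10.5% and 8.01% of all genes, with 0, 0, 2, 0 and 0 unadjusted p-values under 0.05. Among the impk4 libraries after wounding, PROPEP4 spread widely, at 19.9, 7.96 and 14.5 CPM, and PEPR2 at 31.7, 16.7 and 26.1, with the second library lowest in both. The PEPR1 response to wounding differed from WT by -0.20 ± 0.13 (adjusted p = 0.394), and by -0.36 without the first of these libraries (adjusted p = 0.0394).

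In adult shoots PROPEP2 and PROPEP3 were at or near 0 in the impk4 groups, reaching 0.217 and 0.433 CPM at most. PROPEP5 led at 0 h, with 16.7 ± 2.2 CPM per kilobase of exon against 7.68 ± 4.7 for PEPR1 and 2.39 ± 1.1 for PROPEP1 (n = 3). By edgeR and by DESeq2, 3MBiP made no called difference to any of the 7 genes at 3, 6, 12 or 24 h, beside 0.279%, 6.08%, 14.2% and 25.2% of 20806 genes tested. Unadjusted p-values under 0.05 were found for 0, 1, 2 and 1 of the 7. PROPEP2 and PROPEP3 had reads enough to be tested in this set through the mpk4 group alone. At 3, 6 and 24 h PROPEP2 had 0 reads both with mock and with 3MBiP, so it could not be called. PROPEP3 had at most 12 reads in any of these groups. The absence of calls therefore says little or nothing about these 2 genes.

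**Figure D4:**
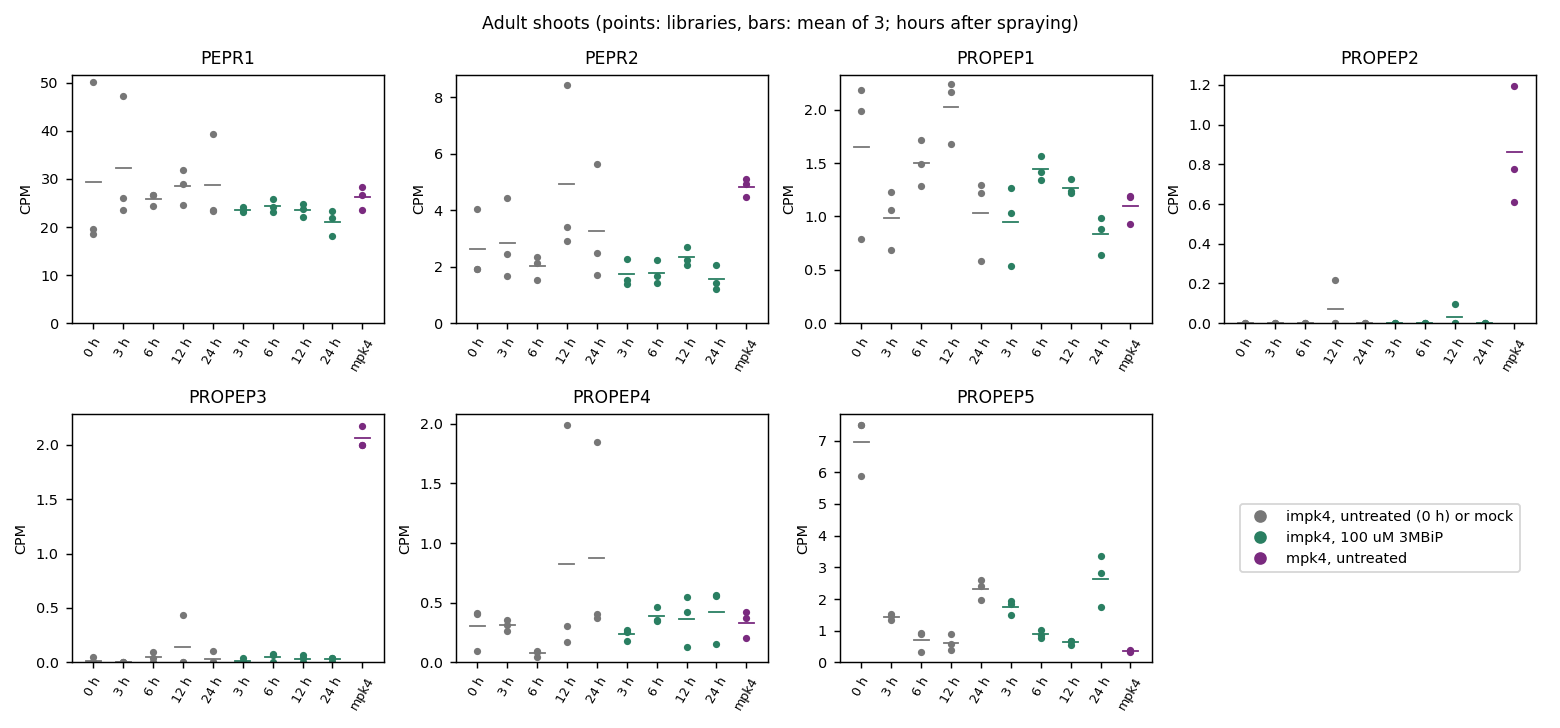
CPM (linear axes from 0) in adult shoots of impk4 at 0 h, after mock and after 3MBiP by hours since spraying, and of untreated mpk4, with 1 point per library and bars at the means of 3. PROPEP2 and PROPEP3 are above 0.5 CPM in mpk4 only, and PROPEP5 is highest at 0 h.

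PROPEP5 varied between the untreated and mock groups. The 0 h plants were not sprayed, so time and spraying cannot be told apart in a difference from 0 h. PROPEP5 stood at 7.48, 5.87 and 7.49 CPM at 0 h, at 1.54, 1.33 and 1.47 at 3 h of mock, at 0.932, 0.902 and 0.317 at 6 h, at 0.382, 0.898 and 0.578 at 12 h and at 2.59, 2.42 and 1.96 at 24 h. The 0 h libraries lay above all others and the 24 h libraries above those at 3, 6 and 12 h, while 6 and 12 h overlapped. An F test over these 5 groups called PROPEP1, PROPEP4 and PROPEP5 (adjusted p = 0.018, 0.0084 and 4.3e-12), 3 of 7 beside 84.5% of all genes. The call of PROPEP1 ended without mock 12 h replicate 2 (0.0537). PEPR2 (adjusted p = 0.0639) was called by DESeq2 (0.0454) and without 0 h replicate 2 (0.0264), 3 h replicate 2 (0.0263), 12 h replicate 1 or 2 (0.0465 and 0.025) or 24 h replicate 1 or 2 (0.0144 and 0.0323). PROPEP3 (0.122) was called without 12 h replicate 1 or 2 (0.0383 and 0.0331). The 3MBiP groups had a like course of PROPEP5, with 1.93, 1.49 and 1.83 CPM at 3 h, 0.78, 0.85 and 1.03 at 6 h, 0.677, 0.553 and 0.676 at 12 h and 1.74, 2.82 and 3.37 at 24 h.

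Single libraries set some adult means. Replicate 3 of mock 12 h had 8.45 CPM of PEPR2 where the others had 3.4 and 2.9, and 1.99 of PROPEP4 where the others had 0.306 and 0.173. Replicate 1 of mock 24 h had 5.65 CPM of PEPR2 against 1.7 and 2.49, and 1.85 of PROPEP4 against 0.404 and 0.371. The PEPR2 difference between 3MBiP and mock was -1.08 ± 0.41 at 12 h and -1.05 ± 0.45 at 24 h (adjusted p = 0.079 and 0.088), and it was -0.43 and -0.41 without those libraries (adjusted p = 0.547 and 0.578). It passed the threshold without mock replicate 2 at 12 h (-1.34, adjusted p = 0.0428) or at 24 h (-1.38, adjusted p = 0.0327). PEPR1 at 0 h was at 50.1 CPM in replicate 2 and at 18.5 and 19.6 in the others.

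Root markers differed between adult groups. PHT1;1, a root phosphate transporter, had 0 reads in the 3 libraries at 0 h, at most 2 in any mock group, 1 and 0 after 3MBiP for 3 and 6 h, 237 and 254 after 12 and 24 h, and 325 in mpk4. Of 8 root markers, 4 had no reads at 0 h (CASP1, PHT1;1, PLT1 and RHD6), 2 or 3 had none in the other mock groups and in 3MBiP at 3 and 6 h, and none was without reads in 3MBiP at 12 and 24 h and in mpk4. The summed level of the 8 was 61 to 66.6 CPM at 0 h, 63.1 to 78.5 in mpk4, 75.6 to 81.4 and 64.9 to 68.3 in mock at 12 and 24 h, and 76.6 to 78.7 and 73.3 to 79.2 in 3MBiP at these times. The 4 green-tissue markers summed to 28600 to 34200 CPM at 0 h and 4920 to 5340 in mpk4. The part of these differences in the results for mpk4 and for 3MBiP at 12 and 24 h was not tested.

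Between mpk4 shoots and untreated impk4 shoots at 0 h, PROPEP2 and PROPEP3 were higher (2 of 7, beside 45.5% of all genes) and PROPEP5 was lower (1 of 7, beside 32.7%). Since PROPEP2 and PROPEP3 passed the filter on low counts through mpk4 alone, that count supports nothing, and their values are given as a description. PROPEP3 was at 2.17, 2 and 2 CPM in mpk4 and at 0, 0.0519 and 0 at 0 h, 175 reads against 1, a ratio of 122 (95% counting interval 21.6 to 4840). PROPEP2 was at 1.19, 0.778 and 0.61 CPM in mpk4, 73 reads, and at 0 in all 3 libraries at 0 h, so it was at least 16.9-fold higher when the group at 0 is set to 3 reads. DESeq2 did not call it (adjusted p = 0.362). Without the filter edgeR called both genes too. PROPEP5 was at 0.386, 0.333 and 0.373 CPM in mpk4, below 0 h by 4.23 ± 0.32 on the log2 scale (adjusted p = 8.1e-13), but by 0.77 against mock 12 h (adjusted p = 0.0551). Since the mpk4 group has no time label and PROPEP5 varied between the mock groups, line and time cannot be told apart for this gene.

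Neither receptor gene was called between mpk4 and 0 h. PEPR1 was at 28.3, 26.7 and 23.6 CPM, overlapping with 0 h (-0.17 ± 0.29). PEPR2 was at 5.12, 4.92 and 4.47 CPM against 1.93, 4.05 and 1.92, without overlap (0.88 ± 0.42, adjusted p = 0.057), and was called against mock 6 h (1.27, adjusted p = 0.0102) and without replicate 2 of 0 h (1.32, adjusted p = 0.0142). PROPEP1 was not called against 0 h (-0.58 ± 0.32, adjusted p = 0.098) but was lower against mock 12 h (-0.88, adjusted p = 0.0124) and without replicate 3 of 0 h (-0.89, adjusted p = 0.0089). The median log2 fold change of all genes tested in this comparison was 0.189, unlike in the seedling comparisons.

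Other genes of Pep signalling were followed as a list of 17, of which 16 were tested in each set. It holds the co-receptors BAK1 and BKK1, the receptor-associated kinases BIK1 and PBL1, the channel gene CNGC2, the oxidase genes RBOHD and RBOHF, the transcription factor gene WRKY33, the metacaspase genes MC4 to MC9, of which MC4 can cleave PROPEP1, and the less studied PROPEP6, PROPEP7 and PROPEP8. After 60 min of 100 nM flg22, 12 rose and 2 fell, beside 32.7% and 33.6% of all genes, with a median log2 fold change of 1.51. After pep3 in WT, 12 rose and 2 fell, beside 32.2% and 30.4%, again with a median of 1.51, where the median of all genes tested was -0.00556. WRKY33 rose by 4.60, BKK1 by 4.05 and MC8 by 5.41, and CNGC2 and PROPEP7 fell by 1.18 and 0.82. MeJA gave another pattern, with 6 higher and 4 lower, beside 16.1% of all genes in each direction. RBOHD rose by 3.20, MC7 by 4.68 and PROPEP7 by 3.06, while BAK1 and BKK1 were not called (-0.07 and -0.02). PROPEP7 also rose after wounding (1.99) and was not called after either flg22 time.

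In impk36 after pep3, 6 of the 16 tested genes of the list were lower than in WT and 2 were higher, beside 17.9% and 16.2% of all genes, with a median log2 difference of -0.0827. For the 7 genes it was -2.04 and for all genes tested 0.00476. WRKY33 was lower by 1.63, RBOHD by 1.30 and MC8 by 4.38, while BKK1, BIK1 and PBL1 were not called (0.08, -0.06 and -0.07). After flg22 for 30 min 8 of 16 were lower and 6 higher, beside 18.8% and 17.2%, and after MeJA 2 were lower (WRKY33 by 1.76 and PBL1 by 0.31), beside 1.3%. In impk4, 6 were lower after pep3, beside 4.23%, with WRKY33 lower by 0.57. In mpk4 shoots 10 were higher and 2 lower than at 0 h, beside 45.5% and 32.7% of all genes and the marker differences given above.

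Across the 49 groups, each centred within its set, the members fell into patterns of their own. These correlations of group means describe the same libraries from which the values above come. PROPEP2 and PROPEP3 were the most alike precursors (Pearson r = 0.873), PEPR1 was like PEPR2 (0.856) and PROPEP1 (0.842), and PROPEP4 was nearer to PEPR2 (0.68) than to PROPEP3 (-0.151). PROPEP5 ran opposite to PROPEP2 and PROPEP3 (-0.528 and -0.53). Among 19215 genes tested in every set, those with the profile nearest to PROPEP3 were CYP81F2 (0.969), a cytochrome P450 gene of indole glucosinolate synthesis, the wall-associated kinase-like gene WAKL10 (0.965) and WRKY30 (0.963). WAKL10 was also near PROPEP2 (0.934), after AT5G65600 (0.942) and AT5G38310 (0.937). PEPR2 was nearest to AT2G18210 (0.934), OPCL1 (0.908), which acts in jasmonate synthesis, and JAZ5 (0.876), a jasmonate signalling repressor gene.

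For the other members the nearest profiles were AT2G34930 (0.936), AT2G30720 (0.932) and AT1G76070 (0.93) for PEPR1, and AT1G26730 (0.888), GGP1 (0.862) and AT2G15760 (0.847) for PROPEP1. PROPEP4 was nearest to AT3G10260 (0.944), the sugar transporter-like gene ESL1 (0.94) and AT1G31550 (0.936), and PROPEP5 to AT1G76570 (0.916), AT4G11570 (0.911) and AT1G50020 (0.901).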

How the data were processed

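Libraries were made with an RNA kit that does not mark strand. Per the submitters' processing notes, the authors used TopHat, HTSeq and the TAIR10 build, with versions not given in the sources used here, and deposited raw read counts per locus. Reads placed at several sites were left out of those counts (5.38 to 42.4% per library, the highest in replicate 3 of impk36 after pep3). The 6 sets were fitted separately in edgeR 4.0.16 (TMM scaling, filter on low counts by group, robust quasi-likelihood test, Benjamini-Hochberg adjustment over all genes of a comparison, threshold 0.05), which was tested on simulated counts first. A response difference is the mutant response minus the WT response. Alternatives were DESeq2 1.42.0, RLE scaling, no filter, a replicate block, leaving out each library and other mock times for mpk4; stimuli within impk36 and impk4 were added after seeing the data. Counting intervals are exact at 95% and cover counting error only. Same-numbered libraries deviated together in 2 of 51 comparisons, where the block changed no call of the 7 genes. The named genes are the members, a list of 17 pathway genes and the 3 nearest profiles to each member. Members and lists were chosen with earlier results of these data known. Sequences are from RefSeq's TAIR10.1 genome.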

Additional observations from a re-analysis of the deposited data

Results flagged for a closer look

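Responses that differed between a line and WT by a test of the difference itself (edgeR, mutant response minus WT response, log2 scale, 3 libraries per group) are listed here with their adjusted p. After pep3 in impk36 the difference was -1.16 for PEPR1 (1.09e-09), -1.8 for PEPR2 (7.25e-08) and -2.91 for PROPEP1 (8.25e-11).

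After flg22 for 30 min in impk36 it was -0.78 for PEPR1 (0.000146), -0.87 for PROPEP1 (0.0334) and -5.04 for PROPEP2 (0.0112). After 1 h it was -0.9 for PEPR1 (6.35e-06), -1.38 for PROPEP1 (0.000124) and -4.44 for PROPEP2 (0.00742). PROPEP2 had 3 reads in unstimulated WT and 4 in unstimulated impk36. After wounding in impk36 it was -0.76 for PEPR1 (0.000507). In impk4 it was -2.08 for PROPEP3 after flg22 for 30 min (0.0485).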

How the results depend on the processing

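Of 448 gene-by-comparison values, 172 were called and 147 of these stayed called under every alternative run that gave an adjusted p. No value changed direction while called. Of 276 not called, 256 stayed so. DESeq2 gave no adjusted p for some values, and these were counted as unchanged under it. The count of members called with 3MBiP against DMSO went from 1 to 2 with a replicate block and ranged from 0 to 2 when single libraries were left out. That of unstimulated impk36 against WT went from 1 to 2 with DESeq2 and from 0 to 2 when libraries were left out. The single impk4 response difference went to 0 without the low-count filter and with a replicate block, and to 0 to 1 when libraries were left out. Adult 3MBiP calls ranged from 0 to 1 and adult mock calls from 3 to 5.

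With a replicate block, PEPR2 passed the threshold with 3MBiP against DMSO (adjusted p = 0.0493) and in impk36 after ABA (0.0306), PROPEP4 in impk4 after pep3 (0.0498) and PROPEP1 after UVB (0.0463). PEPR2 at 10 min of flg22 passed without the filter (0.0469). Within lines, PROPEP4 after flg22 for 30 min in impk36 (0.0496) was lost with RLE scaling (0.051) and without the filter (0.0779). Few reads of PROPEP2, PROPEP3 and PROPEP5 at rest limit their fold changes.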
